A study of Mus musculus with 21 samples.

Results

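The 79 genes described here encode the proteins of the cytosolic ribosome. They were taken from the 16318 genes of the deposited table by symbol alone: Rpl or Rps with a number and at most the letter a, x or l, the stalk proteins Rplp0 to Rplp2, Rpsa and Rps27rt. Of these, 46 belong to the large and 33 to the small subunit. Rows named as pseudogenes and the Rps6k kinases were left out, and no measured value entered the choice of members. The family itself was chosen for study with earlier results of these data known. Whole brains came from 21 SAMP8 mice, a senescence-accelerated strain used as a model of sporadic Alzheimer's disease, which had reached 6 months of age when dosing ended. From 4 months of age, 12 mice (6 female and 6 male) received phosphate-buffered saline (PBS) and 9 mice (3 female and 6 male) received 1 mg/kg of HsTX1[R14A], a toxin-derived peptide that blocks the Kv1.3 potassium channel, subcutaneously every other day for 8 weeks. All 21 mice were SAMP8, so no other strain and no undosed mouse entered the comparison, and each library came from 1 brain. Mice are called by the animal numbers of the study.

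A ribosome is assembled from a large subunit, which forms peptide bonds, and a small subunit, which reads the mRNA, and each has its own set of proteins. Ribosomal protein mRNAs carry a pyrimidine tract at their 5' end (the TOP motif), through which mTORC1 signaling and LARP1 control their translation together. In the brain they are present in every cell type and are also found in dendrites and axons, where local translation takes place.

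The starts of these genes show what they have in common. For 58 of the 79 genes, RefSeq's table for GRCm38.p6 held a promoter window. A run of at least 8 C or T bases on the gene's strand lay within 50 bases of the annotated start in 49 of the 58 genes (84.5%), against 39.3% of all 27025 genes in that table. The letters CTCTTT and CTTTCC, which can lie inside such a run and overlap each other, were each found there in 19 of the 58 genes (32.8%), against 4.68% and 5.43% of all genes. CTTCCG, as in the core of ETS factor sites, was searched on both strands of the whole window, from 250 bases before to 50 after the start, and was present in 40 of the 58 genes (69.0%) and in 18.8% of all. AAGATGG, as in YY1 sites, was found in the same way in 9 of the 58 (15.5%) and in 7.28% of all. TATAA within 50 bases before the start, on the gene's strand, was found in 4 of the 58 (6.90%) and in 5.89% of all. The windows below run from 30 bases before the start to the first 20 bases of the transcript, 5' to 3', with the longest run of C and T in capitals. They are shown for Rps6, the protein phosphorylated downstream of mTORC1, for Rpl35, among the genes with the most negative difference, for Rps15a, Rps18 and Rps26, which followed the other members least closely in one respect or another, and for Rps27 with its near copy Rps27rt.
Rps6: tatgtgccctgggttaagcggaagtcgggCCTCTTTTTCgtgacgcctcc
Rpl35: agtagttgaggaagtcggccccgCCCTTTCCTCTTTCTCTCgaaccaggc
Rps15a: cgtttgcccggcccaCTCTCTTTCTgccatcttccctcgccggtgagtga
Rps18: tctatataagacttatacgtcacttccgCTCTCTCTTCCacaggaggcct
Rps26: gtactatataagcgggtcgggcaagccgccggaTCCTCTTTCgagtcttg
Rps27: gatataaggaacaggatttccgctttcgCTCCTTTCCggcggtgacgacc
Rps27rt: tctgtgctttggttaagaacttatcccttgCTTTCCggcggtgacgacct
These windows lie at chr4:86857348-86857397, chr2:39005112-39005161, chr7:118116128-118116177, chr17:33955646-33955695, chr10:128626487-128626536, chr3:90213629-90213678 and chr9:114982720-114982769, all on the minus strand. The run spans the start in Rps6, Rpl35, Rps18 and Rps27, begins at it in Rps27rt, begins 3 bases after it in Rps26 and ends before it in Rps15a. Within the promoter windows, which end 50 bases after the start, Rps27 and Rps27rt share a run of 38 identical bases that begins at base 2 and base 1 of the transcript. Rps24, Rpl14, Rpl7 and Rps4l were not among the matched genes.

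The counts behind these genes were high. Library totals ranged from 14917174 to 47613792 counts, and the lowest count of any of the 79 genes in any mouse was 20, so that all passed the low-count filter. Levels are given as CPM (a gene's counts relative to the library total, scaled by TMM), and differences as log2 fold changes, HsTX1[R14A] over PBS, from edgeR's quasi-likelihood test with sex in the model, called at an adjusted p (FDR) of at most 0.05 over the 16303 genes tested. Many of these mRNAs have near copies elsewhere in the genome. A median of 62.5% of the 31-base words in a member's principal transcript also occurred in transcripts of other genes, so that reads could be split between a gene and its pseudogenes. In PBS mice, Rps2 measured 419 ± 182 CPM (SD, n = 12), and the row of its pseudogene Rps2-ps10 measured 579 ± 240 CPM. Rpsa and Rpsa-ps10 measured 634 ± 240 and 426 ± 162 CPM.

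Divided by the length of the principal transcript, levels in PBS mice had a median of 375 CPM per kilobase, and 72 of the 79 genes lay within 3-fold of it. Rplp1, a stalk protein that recruits elongation factors, was the highest at 1654 ± 916 CPM per kilobase (SD, n = 12), followed by Rps15 at 1608 ± 683, Rpl38 at 1070 ± 424, Rpl41 at 1034 ± 543 and Rpl31 at 1033 ± 441. Each SD is the spread between the same 12 mice, and whether these genes differ in level within a mouse was not tested. The lowest were Rps4l at 4.53 ± 2.34, Rps27rt at 9.57 ± 5.16, Rps27l at 31.5 ± 14.5, Rpl29 at 41.6 ± 15.9 and Rps20 at 46.2 ± 18.2 CPM per kilobase. The principal transcript of Rps20 is annotated at 3706 bases, against a median of 681 over the 79 genes, which lowers its value per length. Of the genes restricted to other tissues, Rpl3l, Rpl10l and Rpl39l were not analysed here.

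Ribosomal protein mRNAs were lower in the brains of HsTX1[R14A]-treated mice. Together the 79 genes took 1.42% of the counts in the lowest, 2.05% in the median and 4.21% in the highest PBS mouse (mean 2.34 ± 0.824%, SD, n = 12). In HsTX1[R14A] mice these values were 1.03%, 1.52% and 2.59% (mean 1.63 ± 0.478%, SD, n = 9). The groups overlapped: HsTX1[R14A] mouse 93 was above 9 of the 12 PBS mice, and PBS mice 84 and 85 were below the median HsTX1[R14A] mouse. PBS mice 103 (4.21%) and 90 (3.52%) stood above all others.

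**Figure D1:**
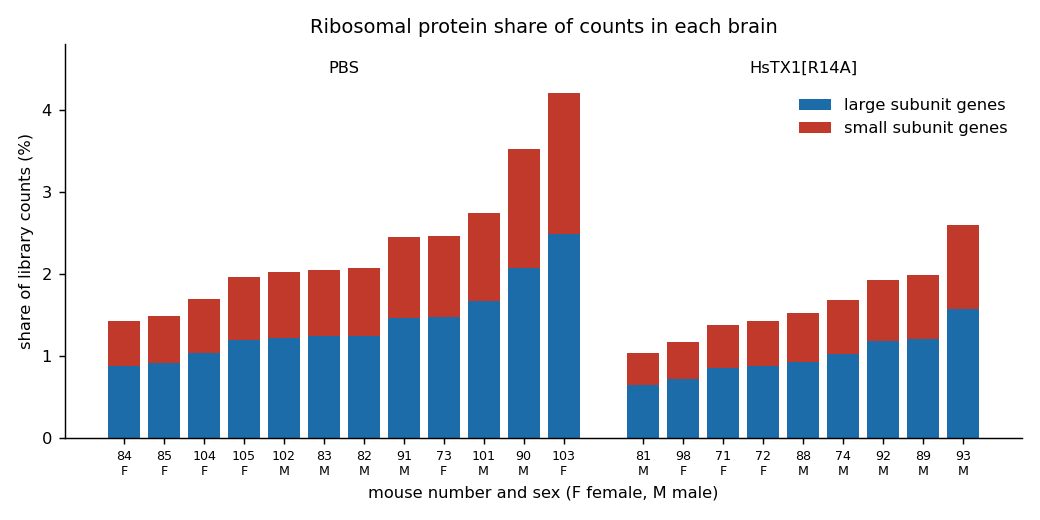
Bars give the share of each library's counts (%, vertical axis) taken by the 46 large subunit genes (blue) and the 33 small subunit genes (red) in each of the 21 mice (horizontal axis, with sex), sorted within PBS and HsTX1[R14A]. The shares run from 1.42% to 4.21% in PBS mice and from 1.03% to 2.59% in HsTX1[R14A] mice, and both subunits take part in the spread.

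Gene by gene, 70 of the 79 members were called lower (88.6%) and 0 higher, against 16.1% of all tested genes called lower and 15.5% called higher (edgeR). At an unadjusted p under 0.05, 77 members were lower and 0 higher, and limma/voom and DESeq2 also called 0 higher. The median log2 fold change of the members was -0.67, a ratio of 0.627, whereas that of all tested genes was -0.01. The log2 fold change was negative in 78 of the 79 genes. For no member did the groups separate completely, and in 53 members at least 8 of the 9 HsTX1[R14A] mice lay below the PBS median. The shares over all tested genes are not given here, so these counts do not tell the members from other genes. The study's limit of 2-fold was passed by 1 member, Rps24. Whether fewer cells rich in these mRNAs or less mRNA per cell lay behind a lower level cannot be told apart in whole-brain RNA.

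**Figure D2:**
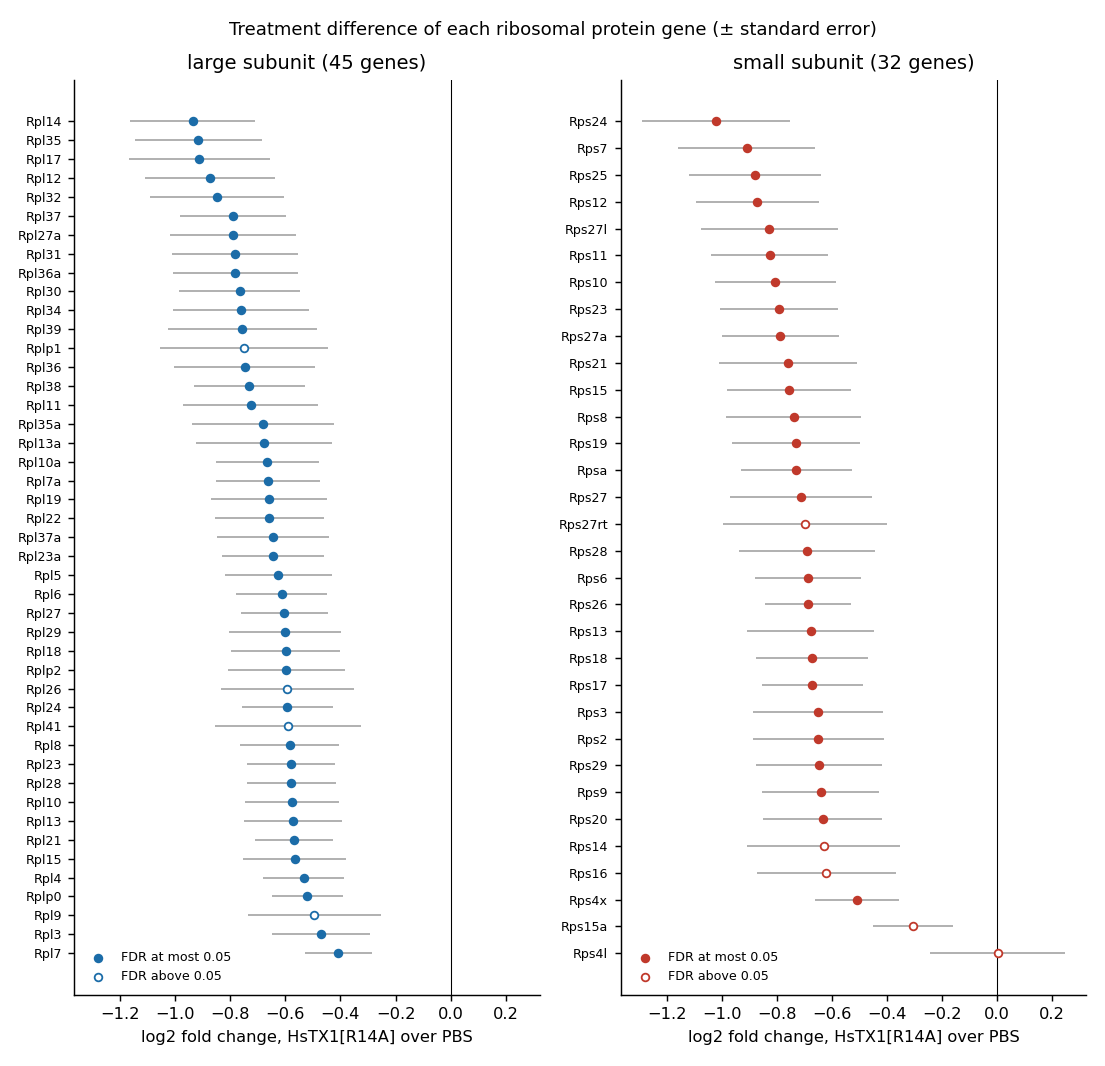
Points give the log2 fold change between HsTX1[R14A] and PBS mice (horizontal axis) with its standard error for 45 large (left) and 32 small (right) subunit genes, filled where the FDR was at most 0.05. All points but that of Rps4l lie below 0, and the open points include Rplp1, Rpl26, Rpl41 and Rpl9 on the left and Rps15a and Rps4l on the right.

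These calls depended on how the libraries were treated. Libraries differed in how counts changed with transcript length, and the mean level of the 79 genes followed this length slope, computed from all other genes, almost exactly (Pearson r = -0.99, Spearman rho = -0.99 over 21 mice, -0.99 and -0.97 within PBS and HsTX1[R14A] mice; both measures come from the same libraries). Without the 2 mice farthest from the median slope, r was -0.98. The slope is the change in centered log2 CPM per doubling of a gene's longest transcript. With the slope (here from all genes) in the edgeR model, 0 members (and 0% of all genes) were called, 9 members had an unadjusted p under 0.05, and the median log2 fold change was -0.027, with 46 genes negative. With each library's trend on length and GC content removed instead, 35 members were called lower against 6.38% of all genes, with a median of -0.37, and 78 stayed negative. How much of the difference belongs to the libraries and how much to treatment cannot be told apart.

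**Figure D3:**
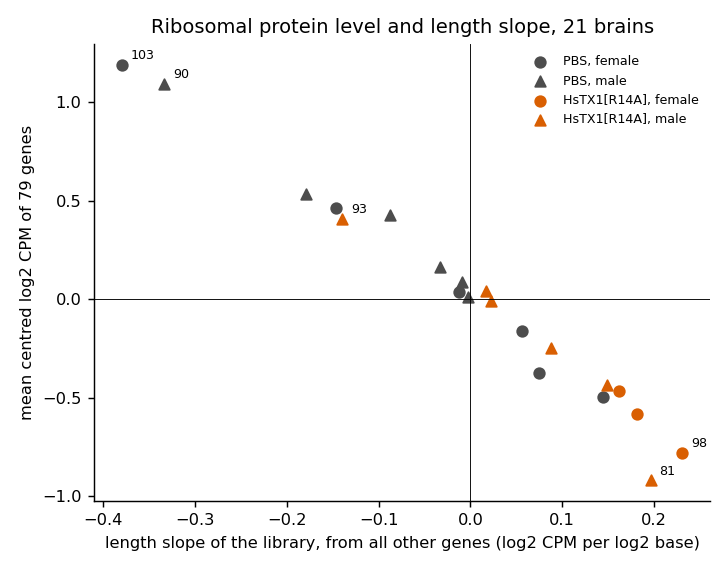
Each point is 1 of 21 brains, with the library's length slope from all genes other than the 79 (horizontal axis, log2 CPM per log2 base) against the mean centered log2 CPM of the 79 genes (vertical axis). Points of both treatments and sexes fall along 1 line (r = -0.99), with PBS mice 103 and 90 at the upper left and HsTX1[R14A] mice 98 and 81 at the lower right.

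Short genes in general moved the same way. Among 949 other genes with a longest transcript under 1000 bases, 38.7% were called lower and the median log2 fold change was -0.44, against 14.3% and 0.01 among 15196 other genes of 1000 bases or more. Of the members, 35 had a longest transcript under 1000 bases (29 called lower, median -0.71) and 44 one of 1000 bases or more (41 called lower, median -0.66). Over the members the longest transcript had a median of 1059 bases and the principal one 681. Some of these 44 therefore have a principal transcript under 1000 bases, and the split does not part short from long mRNAs. Single libraries also moved the count. Without PBS mouse 90, 30 members were called lower (6.32% of all genes), without HsTX1[R14A] mouse 98, 41 members (9.25%), and without HsTX1[R14A] mouse 71, 46 members (10.2%). Without both PBS mice 90 and 103, 42 members were called (7.36% of all genes) and the median was -0.44.

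The deposited table names its libraries in 2 forms, and within neither were members called (edgeR, with 0% of all genes called in each). The more common form covered 10 PBS and 5 HsTX1[R14A] mice. There the median log2 fold change was -0.68, 78 genes were negative and 64 had an unadjusted p under 0.05. In the other form, with 2 PBS and 4 HsTX1[R14A] mice, the median was -0.40, 79 genes were negative and 2 had an unadjusted p under 0.05. The share of all genes at that unadjusted p is not given here, so the counts of members cannot be set against it. What the forms stand for is not stated.

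**Figure D4:**
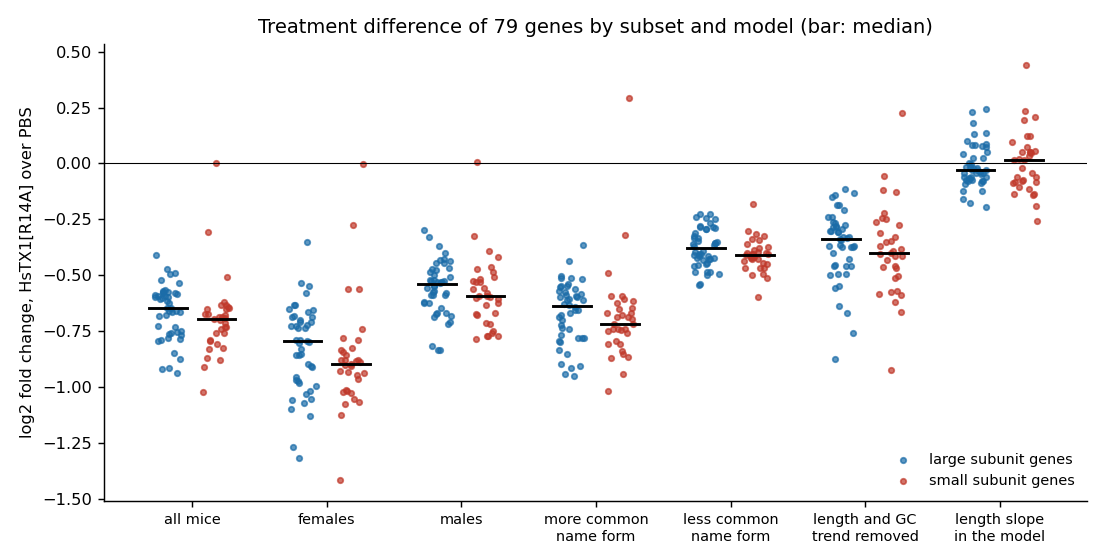
Points give log2 fold changes of HsTX1[R14A] over PBS (vertical axis) for the 46 large (blue) and 33 small (red) subunit genes in all mice, in each sex, in each form of library name and in 2 models that take transcript length into account, with bars at the medians. The medians lie between -0.90 and -0.34 except with the length slope in the model, where they are -0.029 and 0.014.

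Most genes of both subunits were called lower, and the difference between the subunits was not tested. Of the large subunit genes, 42 of 46 were called lower (91.3%), with a median log2 fold change of -0.64. Of the small subunit genes, 28 of 33 were called lower (84.8%), with a median of -0.70. The difference of the medians, small minus large, was -0.052. Large subunit genes took 1.52 ± 0.048 times the counts of small subunit genes in PBS mice (SD, n = 12) and 1.58 ± 0.034 times in HsTX1[R14A] mice (SD, n = 9). This ratio was lowest in PBS mice 90 (1.44) and 103 (1.45), the mice with the highest shares, and highest in HsTX1[R14A] mouse 81 (1.64), the mouse with the lowest. Over 21 mice it fell as the share rose (Pearson r = -0.90, Spearman rho = -0.90; r = -0.83 without the 2 mice farthest from the median share, -0.88 within PBS and -0.86 within HsTX1[R14A] mice; both measures use the same counts). With the trend on length and GC content removed, 22 of 46 large and 13 of 33 small subunit genes were called lower, with medians of -0.34 and -0.40. When each gene was weighted equally on the log2 scale, the mean of the small subunit genes minus that of the large was 0.12 in mouse 103 and -0.079 in mouse 81, but -0.040 in PBS mouse 101, which had the third highest share. This equally weighted difference followed the members' mean level less closely (Pearson r = 0.69, Spearman rho = 0.53 over 21 mice; r = 0.49 without the 2 farthest mice). Within PBS mice r was 0.74 (0.46 without 2 mice), and within HsTX1[R14A] mice it was 0.47 (0.019 without 2 mice). A small subunit gene changed by a median of 1.06 log2 units per unit of the other members' mean, against 0.97 for a large subunit gene.

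The most negative differences were those of Rps24, Rpl14 and Rpl35. Rps24, a small subunit protein mutated in Diamond-Blackfan anemia, lies on chromosome 14 of GRCm38 from 24487125 to 24496959. Its level was 276 CPM in the lowest, 564 in the median and 1390 in the highest PBS mouse, and 198, 318 and 608 CPM under HsTX1[R14A] (log2 fold change -1.02, SE 0.27, FDR = 0.0177). Only HsTX1[R14A] mouse 93 was above the PBS median. For Rpl14, on chromosome 9 from 120571444 to 120574654, the lowest, median and highest values were 211, 391 and 775 CPM under PBS and 145, 203 and 373 CPM under HsTX1[R14A] (log2 fold change -0.94, SE 0.23, FDR = 0.0163). Here all 9 HsTX1[R14A] mice were below the PBS median, as they were for Rpl27 and Rps26 only. Rpl35 (chromosome 2, 39001580 to 39005624) ranged from 161 to 659 CPM under PBS and from 124 to 340 CPM under HsTX1[R14A] (log2 fold change -0.92, SE 0.23, FDR = 0.0170). All 3 genes were also called with the trend on length and GC content removed, at FDR values of 0.0210, 0.0148 and 0.0155.

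The smallest p-values belonged to Rps26, Rpl14, Rpl37, Rplp0 and Rpl21, and except for Rpl14 these were not the genes with the largest differences. Rps26, which contacts the mRNA at the exit channel of the small subunit, lies on chromosome 10 from 128624534 to 128626747. It measured 113, 203 and 332 CPM in the lowest, median and highest PBS mouse and 85.7, 123 and 187 CPM under HsTX1[R14A] (log2 fold change -0.69, SE 0.15, FDR = 0.0151). With the trend on length and GC content removed, its FDR was 0.0507. Rpl37 (chromosome 15, 5116645 to 5119140), a large subunit protein, measured 324 ± 123 CPM (SD, n = 12) against 195 ± 56.3 CPM (SD, n = 9), a log2 fold change of -0.79 (SE 0.19, FDR = 0.0163). Rpl21 (chromosome 5, 146832890 to 146837032) measured 281 ± 74.6 against 196 ± 44.9 CPM (log2 fold change -0.57, SE 0.14, FDR = 0.0169).

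The 3 stalk proteins, which stand together at the factor-binding site of the large subunit, did not vary to the same degree. Rplp0 (chromosome 5, 115559467 to 115563727), the base of the stalk, measured 231 ± 59.2 CPM under PBS and 168 ± 38.4 CPM under HsTX1[R14A] (log2 fold change -0.52, SE 0.13, FDR = 0.0168). Its partner Rplp1 (chromosome 9, 61913284 to 61914542) ranged from 337 to 1943.5 CPM under PBS and from 298 to 996 CPM under HsTX1[R14A]. The log2 fold change of Rplp1 was -0.75 and its standard error 0.30, so that it missed the threshold (FDR = 0.0618). Rplp2 measured 163 ± 64.7 and 111 ± 34.9 CPM (log2 fold change -0.60, SE 0.21, FDR = 0.0387). Rplp0 changed by 0.69 log2 units per unit of the other members' mean over the 21 mice, Rplp1 by 1.23 and Rplp2 by 0.94.

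Rpsa and Rps6 moved as the median member did. Rpsa, a small subunit protein also known as the laminin receptor, measured 341, 585 and 1130 CPM in the lowest, median and highest PBS mouse and 267, 373 and 665 CPM under HsTX1[R14A] (log2 fold change -0.73, SE 0.20, FDR = 0.0191). Summed with Rpsa-ps10, the levels were 1060 ± 401 CPM under PBS and 672 ± 197 CPM under HsTX1[R14A], and the ratio of these means was -0.66 on the log2 scale. Rps6 measured 241, 411 and 830 CPM and 196, 272 and 436 CPM (log2 fold change -0.69, SE 0.19, FDR = 0.0196).

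Paralogs expressed at low levels were compared with their parent genes. Rps27l, a p53-responsive paralog of Rps27, ranged from 8.80 to 33.2 CPM under PBS and from 3.91 to 14.3 CPM under HsTX1[R14A] (log2 fold change -0.83, SE 0.25, FDR = 0.0231). Rps27 itself measured 329 ± 161 and 211 ± 82.4 CPM (log2 fold change -0.71, SE 0.26, FDR = 0.0413). The retrotransposed copy Rps27rt measured 3.58 ± 1.93 and 2.30 ± 1.05 CPM (log2 fold change -0.70, SE 0.30, FDR = 0.0742). Of the 31-base words in Rps27, 98.7% also occur in transcripts of other genes, and of those in Rps27rt 92.7%, so the counts of these 2 genes are uncertain. The sum of Rps27 and Rps27rt was 332 ± 163 CPM under PBS and 213 ± 83.4 CPM under HsTX1[R14A]. Rpl3, Rpl10 and Rpl39, whose tissue-restricted paralogs were not analysed here, had log2 fold changes of -0.47 (FDR = 0.0479), -0.58 (FDR = 0.0226) and -0.76 (FDR = 0.0401). Rpl39, a small protein of the exit tunnel, spanned 7.87-fold over the 21 mice.

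A few members did not follow the rest. The level of each gene was correlated over the 21 mice with the mean of the other 78 members, as a description, since all values come from the same libraries. In 62 genes r was at least 0.95, and Rpl32 (0.997) and Rpl36a (0.996) were among the highest. The log2 fold change of Rpl32 was -0.85 (SE 0.24, FDR = 0.0208) and that of Rpl36a -0.78 (SE 0.23, FDR = 0.0212). The lowest r belonged to Rps4l (0.37), Rps26 (0.85), Rps18 (0.90), Rps24 (0.92) and Rpl35a (0.92).

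Rps4l (chromosome 6, 148354656 to 148355598), a retrotransposed relative of Rps4x that GENCODE lists as a transcribed processed pseudogene, measured 2.86, 3.41 and 10.5 CPM in the lowest, median and highest PBS mouse. In HsTX1[R14A] mice it measured 1.82, 4.57 and 6.21 CPM, and 3 of the 9 were below the PBS median. Its log2 fold change was 0.00 (SE 0.25, FDR = 0.996), the only value above 0 among the members. The X-linked gene Rps4x measured 265 ± 72.1 and 192 ± 47.6 CPM (log2 fold change -0.51, SE 0.15, FDR = 0.0232).

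Among members annotated as protein-coding, Rps15a and Rpl7 had the smallest differences. Rps15a (chromosome 7, 118104372 to 118116188) measured 96.0, 125 and 217 CPM under PBS and 78.0, 110 and 150 CPM under HsTX1[R14A], a log2 fold change of -0.31 that missed the threshold (SE 0.14, FDR = 0.102). Rpl7 (chromosome 1, 16101295 to 16104662) measured 173, 237 and 356 CPM and 131, 187 and 246 CPM, a log2 fold change of -0.41 that was called (SE 0.12, FDR = 0.0226). These genes also varied least: Rpl7 spanned 2.72-fold and Rps15a 2.79-fold over all mice, and Rpl7 changed by 0.58 log2 units per unit of the other members' mean, against 1.25 for Rpl39 at the other end. Over the 79 genes, the log2 fold change was the more negative the more a gene varied with the others among PBS mice alone (Pearson r = -0.69, Spearman rho = -0.71 across 79 genes), with genes sharing the same libraries. With the gene's principal transcript length, Pearson r was 0.16 and Spearman rho 0.25, and with its GC content they were 0.080 and 0.024.

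In HsTX1[R14A] mouse 81, the mouse with the lowest ribosomal protein share, Rps26 and Rpl35a deviated in opposite directions. There Rps26 measured 157 CPM, above every other HsTX1[R14A] mouse but mouse 93, and Rpl35a 18.1 CPM, the lowest value of all 21 mice. Measured from the level that each gene's relation to the other members gives, Rps26 stood 0.66, Rps24 0.61 and Rps2 0.57 higher in mouse 81 on the log2 scale, and Rpl35a stood at -0.49, the same as in PBS mouse 105. In HsTX1[R14A] mice 89 and 92 the signs were turned, with Rps26 at -0.40 and -0.18, Rps24 at -0.40 and -0.42, and Rpl35a at 0.34 and 0.46. Mice 81, 89 and 92 all had the less common form of library name, whose part in these deviations was not tested. Rpl35a (chromosome 16, 33056453 to 33060189), a large subunit protein, ranged from 33.7 to 133 CPM under PBS and from 18.1 to 71.6 CPM under HsTX1[R14A] (log2 fold change -0.68, SE 0.26, FDR = 0.0494). Without mouse 81, r of Rps26 was 0.92 and r of Rpl35a stayed at 0.92. Rps18, a small subunit protein at the head of the subunit, ranged from 88.1 to 338 CPM under PBS and from 54.8 to 163 CPM under HsTX1[R14A] (log2 fold change -0.67, SE 0.20, FDR = 0.0237). It stood lowest against the others in PBS mice 73 (-0.53), 105 (-0.47) and 103 (-0.42) and highest in HsTX1[R14A] mouse 92 (0.40). Of the 31-base words in Rps18, 90.8% also occur in other transcripts.

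**Figure D5:**
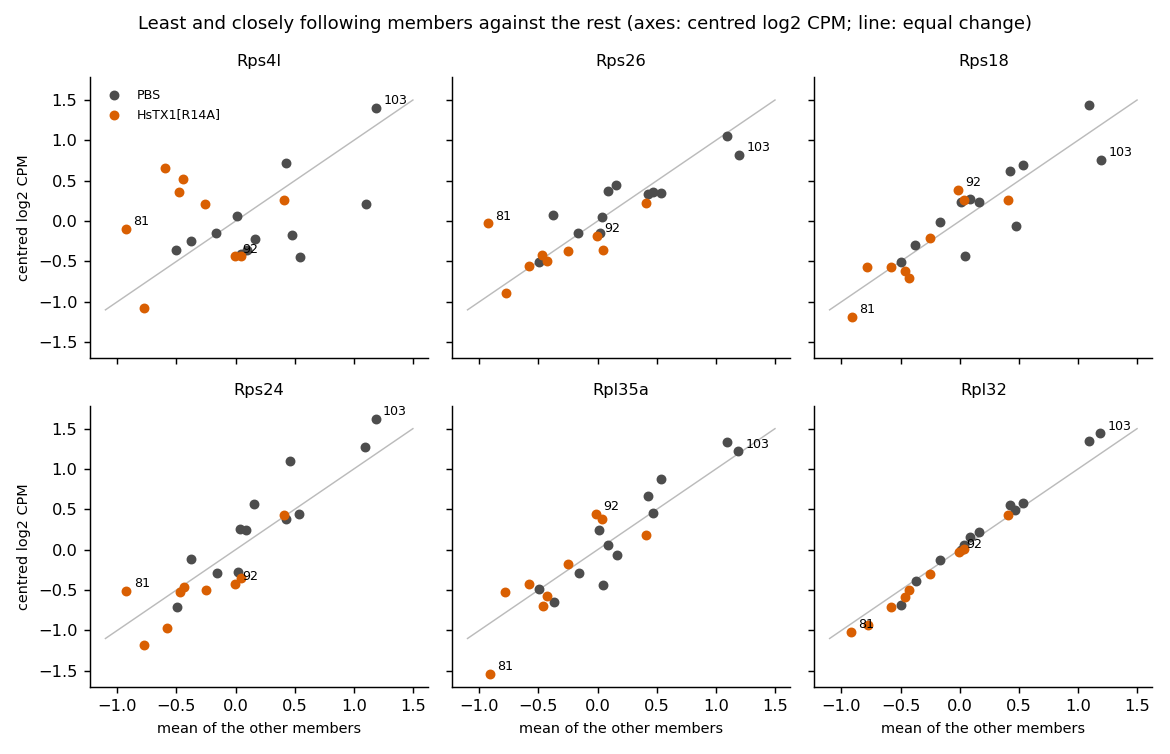
Each panel plots the centered log2 CPM of 1 gene (vertical axis) against the mean of the other 78 members (horizontal axis) in 12 PBS (gray) and 9 HsTX1[R14A] (orange) mice, with a line of equal change. Rpl32 lies close to the line, Rps4l scatters widely (r = 0.37), and mouse 81 lies above the line for Rps26 and Rps24 and below it for Rpl35a.

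Members were also counted by shared sequence, but its part in the result was not tested. The 3 genes sharing under 10% of their 31-base words with other genes were called lower with a median log2 fold change of -0.65. So were 48 of the 55 genes sharing over 50%, with a median of -0.68. Over all members 88.6% were called lower, and over all tested genes 16.1%. Of the 29 members with annotated snoRNA genes in their introns or exons (56 snoRNA genes in all), 28 were called lower. A protein-coding gene on the opposite strand overlaps 17 members, and reads from the pair could not be told apart if the counting ignored strand. The study's methods name a directional library kit and the labels another kit, and the strand setting of the counting is not given in the sources used here. The members not called were Rplp1, Rpl26, Rpl41, Rpl9, Rps14, Rps15a, Rps16, Rps27rt and Rps4l, and apart from Rps4l their FDR values reached at most 0.113.

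Sex was compared next. Ribosomal protein mRNAs measured lower in females, but 0 members were called (edgeR; 9 with an unadjusted p under 0.05; 0 also by limma/voom and DESeq2), against 0.0552% of all genes. The median log2 difference of females from males was -0.31 and 78 of the 79 values were negative. With sample quality weights in limma/voom, 62 members were called lower in females, against 8.19% of all genes. The length slope of the libraries (from all genes) also differed by sex. Under PBS it was -0.044 ± 0.19 in females and -0.11 ± 0.13 in males (SD, n = 6 each). Under HsTX1[R14A] it was 0.19 ± 0.036 in females (SD, n = 3) and 0.056 ± 0.12 in males (SD, n = 6). Its part in the sex difference was not tested. The X-linked members were no exception. Rpl10 measured 272 ± 112 CPM in females (SD, n = 9) and 320 ± 106 CPM in males (SD, n = 12), a log2 difference of -0.34 (SE 0.17, FDR = 0.446). The log2 differences of Rpl36a, Rpl39 and Rps4x were -0.34, -0.35 and -0.25, with standard errors of 0.22, 0.27 and 0.15, also not called.

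The treatment difference was negative in both sexes. In females alone (6 PBS and 3 HsTX1[R14A] mice) the median log2 fold change was -0.86, and in males alone (6 and 6 mice) it was -0.56. In neither sex was a member called (0% of all genes called in females and 0% in males). At an unadjusted p under 0.05 there were 60 members in females and 59 in males. The share of all genes at that unadjusted p is not given here. The value was more negative in females in 74 of the 79 genes, but the interaction of treatment and sex called 0 members (edgeR; 0% of all genes; 0 also at an unadjusted p under 0.05, and by limma/voom and DESeq2). Its lowest p was that of Rplp1, with a log2 difference of -0.91. The median interaction was -0.27, and with the length slope as a covariate 0.10.

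Genes that share the ribosome or its regulation with the members were counted from lists written with earlier results known. Of 6 tested cytosolic ribosomal proteins whose symbols fall outside the naming rule, 5 were called lower and 0 higher (edgeR). The lower calls were 83.3%, against 16.1% of all tested genes. By limma/voom and DESeq2 0 were also called higher, and 5 had an unadjusted p under 0.05. A further one, Rack1, was not analysed here. Rps3a1, a small subunit protein, measured 477 ± 163 and 311 ± 71.1 CPM (log2 fold change -0.67, FDR = 0.0172), and Fau, a fusion of a ubiquitin-like and a small subunit protein, 303 ± 126 and 203 ± 70.1 CPM (-0.65, FDR = 0.0326). Rpl22l1, a paralog of Rpl22, had a log2 fold change of -0.77 (FDR = 0.0320) and Rpl36al one of -0.44 (FDR = 0.0184). Rpl7l1, a relative of Rpl7, was not called (-0.19, FDR = 0.185). Of 42 rows named as ribosomal protein pseudogenes, 27 were called lower (64.3%, against 16.1% of all tested genes) and 0 higher, with a median of -0.70. By limma/voom and DESeq2 0 were also called higher, and 31 rows had an unadjusted p under 0.05. With the trend on length and GC content removed, 9 of these rows were called lower, with a median of -0.29. In that fit 2 of the 6 proteins above (median -0.31) and 6.38% of all genes were called lower.

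Of 21 other TOP RNAs, among them those of elongation and initiation factors, 14 were called lower and 1 higher, with a median of -0.36. The lower calls were 66.7%, against 16.1% of all tested genes. With the trend on length and GC content removed, 5 were called lower, against 6.38% of all genes, and 1 higher, with a median of -0.17. Npm1, a nucleolar chaperone of ribosome assembly, measured 230 ± 48.2 and 173 ± 18.3 CPM (log2 fold change -0.43, FDR = 0.0169), and Eif3e, an initiation factor subunit, 139 ± 45.5 and 92.7 ± 25.3 CPM (-0.65, FDR = 0.0171). Tpt1, which encodes translationally controlled tumor protein, measured 902 ± 323 and 577 ± 173 CPM (-0.72, FDR = 0.0172). The exception was Eef1a2, the elongation factor of mature neurons, at 611 ± 106 and 769 ± 86.1 CPM (0.33, FDR = 0.0237), while Eef1a1 was lower (-0.51, FDR = 0.0256). Eef2, whose TOP motif is well known, measured 1067 ± 96.9 and 1083 ± 96.7 CPM (0.0062, FDR = 0.948). The proteins of the mitochondrial ribosome, encoded by other nuclear genes, were called lower in 39 of 77 cases and higher in 0, with a median of -0.36. The lower calls were 50.6%, against 16.1% of all tested genes. By limma/voom and DESeq2 0 were also called higher, and 58 had an unadjusted p under 0.05. With the trend on length and GC content removed, 6 were called lower, against 6.38% of all genes, and 1 higher, with a median of -0.15. Mrps15 had a log2 fold change of -0.42 (FDR = 0.0151) and Mrpl55 one of -0.54 (FDR = 0.0161). Ribosome biogenesis factors did not show 1 direction: 11 of 47 (23.4%, against 16.1% of all tested genes) were called lower, among them Taf1b (-0.33, FDR = 0.0176) and Pno1 (-0.46, FDR = 0.0185), and 6 higher (12.8%, against 15.5%), among them the RNA polymerase I subunit Polr1b (0.39, FDR = 0.0171), with a median of -0.028. After removal of the trend on length and GC content, 1 of these 47 was called lower and 6 higher, with a median of -0.0051. Among mTORC1 components and regulators of TOP mRNAs, 5 of 31 were called lower (16.1%, the same share as over all tested genes) and 9 higher (15.5% over all tested genes). After removal of that trend, 1 of the 31 was called lower and 2 higher, with a median of 0.021. Which genes these were is not given here, so the following values hold for the fit without that removal. Mtor, the kinase itself, measured 56.3 ± 18.8 and 85.1 ± 22.3 CPM (0.64, FDR = 0.0195), Sesn3, a sestrin that restrains mTORC1, 18.9 ± 3.82 and 26.6 ± 4.26 CPM (0.52, FDR = 0.0151), and Eif4g1, the scaffold of the cap-binding complex, 127 ± 41.0 and 196 ± 45.0 CPM (0.66, FDR = 0.0184). Eif4ebp1, a repressor of cap-dependent translation, had a log2 fold change of -0.52 (FDR = 0.0161).

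Of 49 tested markers of cell types the samples could hold, 8 were called lower (16.3%, against 16.1% of all tested genes) and 2 higher (4.08%, against 15.5%). The part of these cell types in the result was not tested. Neuronal markers were at high levels, with a summed level of 4420 to 7018 CPM under PBS and 5114 to 8028 CPM under HsTX1[R14A], and 1 of 8 was called, Syt1, higher. Of 6 oligodendrocyte markers, 3 were called lower (summed level 4277 to 6608 against 3243 to 4783 CPM), of 8 microglia markers 3 lower (395 to 581 against 332 to 498 CPM), of 6 astrocyte markers 2 lower (2059 to 4074 against 2397 to 4183 CPM), and of 6 endothelial markers 1 higher (68.5 to 121 against 82.3 to 140 CPM). Choroid plexus markers, which depend on dissection, spanned 69.6 to 1129 and 59.5 to 835 CPM with 0 of 7 called by edgeR (1 at an unadjusted p under 0.05, 0 by limma/voom and 1 by DESeq2), and erythrocyte markers 5.82 to 157 and 15.1 to 87.6 CPM with 0 of 5 called by edgeR, limma/voom or DESeq2 (0 at an unadjusted p under 0.05). Of the muscle markers, 3 were tested and 0 called by edgeR (1 at an unadjusted p under 0.05, 0 by limma/voom and 1 by DESeq2, 15.4 to 32.6 against 14.7 to 31.6 CPM), and male germ cell markers were not analysed here. The tested markers had passed the low-count filter, so none of them could be at 0 in every mouse. Mitochondrially encoded mRNAs were lower as well, with shares of 9.33% to 20.2% in PBS mice and 7.13% to 13.5% in HsTX1[R14A] mice. Of 13, 12 were called lower (92.3%, against 16.1% of all tested genes), with a median of -0.69. With the trend on length and GC content removed, 5 were called lower, against 6.38% of all genes, with a median of -0.11.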

How the data were processed

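Whole-brain RNA of 21 mice was sequenced, 1 library per mouse. The authors aligned reads to GRCm38 by STAR and deposited Salmon's estimated counts per gene, not normalized, in 1 table of 16318 genes. How these genes were selected is not given in the sources used here. The estimated counts were rounded to whole numbers, of which 90.5% had been within 0.01 of one. A further 53 per-sample columns (CPM values and other libraries) and the columns of the authors' own log2 fold changes, p-values and FDR were not used.

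Genes that passed filterByExpr by treatment and sex (16303) were tested in edgeR 4.0.16 (R 4.3.3) by the quasi-likelihood test after TMM scaling, with sex in the model, where the study used limma/voom. Adjustment for multiple testing followed Benjamini and Hochberg, over all genes tested. A standard error is the size of the log2 fold change divided by the square root of F, and log2 CPM carries a prior count of 2. Alternatives were limma 3.58.1 with and without quality weights, DESeq2 1.42.0, RLE scaling, scaling without the members, other filters, no sex term, the library name form, 1 surrogate variable (sva 3.50.0), loess trends (span 0.5) on length and GC content, the length slope, subsets of mice, and each mouse left out. In data simulated from these libraries for the treatment comparison, 200 genes among 16299 were changed 2-fold. Of these, 179 were recovered, and 10 calls were false. Each gene was drawn independently, without the length slope in which the real libraries differ. The rate of false calls in the real comparison was therefore not measured.

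Annotation was GENCODE M21 (GRCm38), which gave a length for 99.5% of the genes and for all 79 members. The principal transcript is the shortest of the best APPRIS rank. Words of 31 bases were compared on the same strand. Mice of both treatments shared cages, since the study randomized mice to treatment within each cage, but the cage of each mouse is not given in the labels, so no cage term was fitted. P-values measure the spread between mice.

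The members were selected by symbol, but this gene family and the other lists were chosen for study with earlier results of these data known. Named are the 5 members of smallest p in each direction, the 3 most negative and the 3 highest log2 fold changes, the 5 least and the 3 most correlated with the rest, duplicate members with their main copies, the stalk proteins, Rpsa, Rps6, X-linked members, ribosomal proteins outside the naming rule and, of other lists, up to 2 genes of smallest p in a direction. The highest and lowest levels per length, the genes leading or sharing sequence, Rps2, Tpt1, Eef1a1, Eef2 and Mtor were named after their values were seen. Values of a few single genes are not reported here, though they enter the counts and medians. Library totals ranged from 14917174 to 47613792 counts.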

Additional observations from a re-analysis of the deposited data

How the results depend on the processing

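The 70 members called lower (16.1% of all genes tested) became 42 without the sex term (9.54% of all genes), 21 with the library name form as covariate (6.28%), 45 with 1 surrogate variable (6.49%), 35 (6.38%) and 28 (6.61%) with the trend on GC content and on the longest or the principal transcript length removed, 42 without the 2 libraries of the lowest length slope (7.36%), and 0 with the length slope in the model (from all genes or without the members), within each name form, and in females or males alone (0% of all genes in each). Leaving out each mouse in turn gave 30 (6.32% of all genes, without PBS mouse 90) to 76 (20.5%, without HsTX1[R14A] mouse 93), with 41 (9.25%) and 46 (10.2%) without HsTX1[R14A] mice 98 and 71. The median of -0.67 became -0.027 with either length slope and stayed at -0.28 or lower otherwise. Of the 25 genes named by rule, called ones turned positive only with the slope covariates: Rpl3 (0.0716 and 0.0717), Rpl35a (0.0996 and 0.0995), Rpl39 (0.0835 and 0.0836), Rplp2 (0.0845 and 0.0851) and Rps27 (0.0968 with either). The sex comparison called 62 members lower with quality weights and 0 in the other alternatives, the interaction 0 throughout. The causes were not tested. The trend on principal length, the slope without the members and the removal of 2 libraries were chosen after seeing the data. Over these genes and 19 settings, 177 single values lost and 2 gained the threshold. No paired analysis was possible because the labels give neither the cages, within which mice were randomized, nor replicate numbers that the groups share. The female comparison rests on 3 HsTX1[R14A] mice.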

Other observations

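After each gene's relation to the other members was removed, 42.4% of what remained in 78 members (Rps4l left out) lay along 1 direction across the 21 mice. Rps24, Rps26, Rps2 and Rpl28 stood at one end of it and Rpl35a, Rps18, Rpl26, Rps21 and Rps14 at the other. HsTX1[R14A] mouse 81 had the highest value (0.56), followed by PBS mice 73 (0.26) and 105 (0.26), and HsTX1[R14A] mice 92 (-0.38) and 89 (-0.33) the lowest. Mice 81, 92 and 89 had the less common form of library name, and mice 73 and 105 the more common one. The other mice of the less common form were HsTX1[R14A] mouse 98 (-0.24) and PBS mice 102 (-0.22) and 104 (-0.013). The part of the name form was not tested. The position of a gene along it was nearly unrelated to the GC content of its longest transcript (Pearson r = 0.090 across genes), the length of its principal transcript (0.18) and the share of its 31-base words found in other genes (-0.046), with genes sharing the same 21 libraries.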
